A study of Homo sapiens with 30 samples.

Results

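The regions described here stayed open from pluripotent cells through the neural ectoderm of day 2 and then lost their peak in every day 4 population. Overlapping peaks of all 10 lists on chromosomes 1 to 22, sharing 1 bp or more, were joined into merged regions. A list counts as open at a merged region where it had a peak and as closed where it had none. Members are the regions open in all of hPSC, DE, aNE and pNE and in none of the 6 day 4 lists. There were 567 of them among 476170 merged regions, which is 0.119%, and among the 103540 regions open in all 4 early lists they made up 0.548% (exact 95% binomial interval 0.504% to 0.594%). The members were chosen by these open and closed calls, so the counts by list are a description.

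Open chromatin was mapped with OmniATAC-seq, in which the Tn5 transposase cuts accessible DNA, in wild-type H1 cells, an established human embryonic stem cell line. Undifferentiated hPSC were taken on day 0. Definitive ectoderm (DE) was taken on day 1 after culture in CDM2 medium with A8301, Trametinib, C59 and LDN193189, which inhibit the TGF-beta type I receptor, MEK, WNT secretion and the BMP type I receptor. Anterior neural ectoderm (aNE) was taken on day 2 after A8301, LDN193189, C59 and Thiazovivin, a ROCK inhibitor. Posterior neural ectoderm (pNE) was taken on day 2 after A8301, LDN193189, TTNPB, FGF2, XAV939 and Thiazovivin. TTNPB activates retinoic acid receptors, FGF2 is a growth factor and XAV939 inhibits tankyrase. On day 4 there were 6 groups, aNE_T, aNE_M and aNE_H from aNE and pNE_T, pNE_M and pNE_H from pNE, where T, M and H stand for telencephalon, midbrain and hindbrain media. The forebrain medium held XAV939, LDN193189 and FGF2 on day 3, and the full makeup of the day 4 media is not given in the sources used here. Each group had 3 libraries of 50000 cells, all from the same line.

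The deposited lists hold 1 set of peaks per group and no value per library, score or depth. No comparison below therefore has a replicate error or a test, and intervals cover only the sampling of regions within these lists. A missing peak says that none was called, which does not show that the chromatin was closed in every cell. Peaks on these chromosomes numbered from 162041 in aNE to 302355 in pNE_H, and the regions they covered came to between 72.9 Mb and 125 Mb. A list with fewer peaks leaves more regions closed, and its part in the counts was not tested.

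Accessible regions are mostly promoters and enhancers, stretches where transcription factors and the enzymes they recruit hold nucleosomes aside. Promoters are often open in many cell types, whereas enhancers are more often specific to a cell type. When pluripotent cells become neural ectoderm, enhancers held by pluripotency factors such as OCT4 close, while SOX2 stays expressed in neural progenitors and moves to other sites.

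Promoters next to genes were rare among the members, and the few that lay there are shown to place them beside their genes. Start sites on 1 of the 22 chromosomes, where 29 members lay, were not used here, so these members could not overlap a window. On the others, a start site lay within 1 kb of 13 of 538 members (2.42%), beside 15.7% of regions open in the 4 early lists. They held 33725 windows, running from 250 bases before to 50 bases after a RefSeq start site of GRCh38.p14. Members overlapped 6 of these windows, which is 0.0178%, a share that also depends on the number of members. The 6 windows belonged to CYP26A1, PDGFA, PLA2G4D and 3 long noncoding RNA genes, LINC01440, LOC105373640 and LOC124903555. All were named because of this overlap after it was seen. Below are the 250 bases before the start site of 4 of them, on the strand of the gene, with the bases inside the member in capitals.
CYP26A1: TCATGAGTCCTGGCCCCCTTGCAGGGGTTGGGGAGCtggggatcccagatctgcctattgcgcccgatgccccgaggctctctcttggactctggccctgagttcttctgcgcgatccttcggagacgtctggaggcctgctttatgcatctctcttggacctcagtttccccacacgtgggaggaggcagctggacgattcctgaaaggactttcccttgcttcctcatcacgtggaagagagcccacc
PDGFA: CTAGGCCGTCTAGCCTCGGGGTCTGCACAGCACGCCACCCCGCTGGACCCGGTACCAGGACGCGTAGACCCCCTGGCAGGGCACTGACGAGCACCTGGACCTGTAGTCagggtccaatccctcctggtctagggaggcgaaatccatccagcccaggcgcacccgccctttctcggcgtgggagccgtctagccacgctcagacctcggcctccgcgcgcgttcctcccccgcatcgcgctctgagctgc
PLA2G4D: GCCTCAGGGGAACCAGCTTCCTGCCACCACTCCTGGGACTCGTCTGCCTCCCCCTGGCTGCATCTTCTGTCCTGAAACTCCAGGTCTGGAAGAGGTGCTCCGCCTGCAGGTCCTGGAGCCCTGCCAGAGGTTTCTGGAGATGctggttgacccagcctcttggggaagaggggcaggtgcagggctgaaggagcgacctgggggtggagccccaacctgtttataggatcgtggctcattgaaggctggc
LINC01440: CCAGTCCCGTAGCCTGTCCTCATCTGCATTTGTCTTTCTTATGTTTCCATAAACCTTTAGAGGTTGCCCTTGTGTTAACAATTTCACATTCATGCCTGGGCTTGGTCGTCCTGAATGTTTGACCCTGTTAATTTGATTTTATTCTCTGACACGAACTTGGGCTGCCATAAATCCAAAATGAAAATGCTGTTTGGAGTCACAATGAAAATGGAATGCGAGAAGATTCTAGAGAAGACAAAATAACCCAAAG

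CYP26A1 encodes an enzyme that breaks down retinoic acid, and its printed window runs from chr10:93073225-93073474 on the plus strand. The member chr10:93072419-93073260 reached 36 bases into it. Its peak was 383 bp wide in hPSC, 292 bp in DE, 831 bp in aNE and 204 bp in pNE. Among them the aNE peak was the widest of the 4 and the pNE peak the narrowest. Regions open in all 10 lists flanked it, at -1.65 to -1.112 kb and at -0.069 to 1.983 kb from the start site, and the nearest day 4 peak was 57 bp away. Within 50 kb of the gene there were 11 regions open in the 4 early lists, of which 9 were open in all 10 lists and 1 was this member. It was found under 1 of 5 other definitions of an open region, and when peaks within 100 bp of each other were merged it joined a neighbour.

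PDGFA encodes a growth factor chain, and its window lies at chr7:520701-520950 on the minus strand. The member chr7:520843-521134 covered 108 bases of it, with peaks of 143 bp in hPSC, 209 bp in DE, 256 bp in aNE and 204 bp in pNE. A day 4 peak lay 93 bp away, and the member was not found under any of these 5 definitions. PLA2G4D encodes a cytosolic phospholipase A2, and its window lies at chr15:42094563-42094812 on the minus strand. Member bases made up 142 of it, from chr15:42094671-42095027, with peaks of 299, 242, 276 and 204 bp in hPSC, DE, aNE and pNE. Its nearest day 4 peak was farther off, at 1923 bp, and it was found under 4 of the 5 other definitions.

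LINC01440 is the gene whose window, chr20:55422793-55423042 on the plus strand, lay wholly inside a member. That member, chr20:55422759-55423572, had a peak of 536 bp in hPSC, 780 bp in DE, 332 bp in aNE and 124 bp in pNE. The wide peaks were those of days 0 and 1, and the pNE peak was as narrow as any in its list. At LOC105373640 the member chr2:138917115-138917384 had peaks of 250, 270, 137 and 136 bp, and at LOC124903555 the member chr15:90594383-90594664 had peaks of 227, 112, 132 and 211 bp, each in the order hPSC, DE, aNE and pNE. The GC content of the 6 windows ran widely, from 34% at LOC105373640 and 40.4% at LINC01440 to 68.8% at PDGFA. Their median was 58.4%, the same as over all promoter windows. It was 65.6% over the 19347 windows overlapped by a region open in all 10 lists.

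The 250 bases before each start site were searched on both strands for 24 short motifs, where N stands for any base. With so few windows the matches are a description of letters and not of binding. The CTCF core CNAGNNGGC was found in the CYP26A1 and PDGFA windows and in 20.6% of all windows. At CYP26A1 it lay inside the member, 238 to 230 bases before the start site. At PDGFA a match lay inside the member, 246 to 238 bases before the start site, and another outside it, at 67 to 59 bases. The SP/KLF box GGGCGG was found in PDGFA alone, outside the member, beside 42.7% of all windows and 65.2% of those open in all 10 lists. LINC01440 held the SOX letters ACAATG (9.33% of all windows) and the E-box CATCTG (12.2%), both inside its member. PLA2G4D held the GRHL letters AACCNGTT (1.49%) and CYP26A1 the E-box CAGCTG (14.1%), both outside the member. LOC124903555 held the FOX letters TGTTTAC (2.99%) inside its member, and LOC105373640 the homeodomain letters TAATTA (4.40%) outside it.

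None of the 6 windows held the octamer ATGCAAAT (1.61% of all windows), the OCT-SOX core TGTNATGCA (0.611%), the SOX form ACAAAG (13.6%) or the nuclear receptor site AGGTCA (12.1%). The same was true of the letters of ZIC CAGCAGG (8.50%), TEAD ACATTCC (2.94%), AP-1 TGANTCA (6.54%), TFAP2 GCCNNNGGC (19.9%) and OTX/GSC TAATCC (5.62%). It was also true of ETS CCGGAAG (8.55%), NRF1 GCGCATGCG (1.64%), CRE TGACGTCA (1.66%) and ESRR TCAAGGTCA (0.314%). The last were SMAD CAGACA (13.6%), NFI TTGGCA (10.8%) and RFX GTTGCCATG (0.750%). Some of these letters overlap: the ESRR letters contain AGGTCA, and OCT-SOX shares bases with the octamer.

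MicroRNAs are short RNAs that silence messenger RNAs by pairing through their seed. A hairpin lay within 5 kb of 4 of 538 members (0.743%, interval 0.203% to 1.89%), the same chromosome left out, beside 1.05% of regions open in the 4 early lists and on day 4 and 0.691% of all merged regions. That share is near the background, and the cases are given as examples only. The genes were MIR550A1, MIR550B1, MIR635, MIR4297 and MIR9-3, all named after this was seen. Mature RNAs assigned to the hairpins inside a member, and those of the neural microRNA miR-9, are shown, with the seed, bases 2 to 8, in capitals. The set need not be complete, and the assignment of hsa-miR-550b-2-5p to MIR550B1 was not checked against the hairpin bases.
hsa-miR-550a-5p: aGUGCCUGagggaguaagagccc
hsa-miR-550b-3p: uCUUACUCccucaggcacug
hsa-miR-550b-2-5p: aUGUGCCUgagggaguaagaca
hsa-miR-9-5p: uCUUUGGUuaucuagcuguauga
hsa-miR-9-3p: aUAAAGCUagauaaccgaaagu

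No seed is shared among these 5. MIR550A1 and MIR550B1 are annotated on opposite strands of the same hairpin bases, chr7:30289794-30289890, inside the member chr7:30289714-30289909. The peak there was narrow in every early list, at 157 bp in hPSC, 188 bp in DE, 140 bp in aNE and 152 bp in pNE. MIR9-3 is a gene for miR-9, which is abundant in neural progenitors, and its hairpin lay 1957 bp from the member chr15:89370063-89370396. That peak was 334 bp wide in hPSC, 219 bp in DE, 164 bp in aNE and 127 bp in pNE. Both day 2 peaks were narrower than those of days 0 and 1. MIR635 lay 307 bp from the member chr17:68424855-68425294, with peaks of 388, 440, 220 and 132 bp in hPSC, DE, aNE and pNE.

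Complete closing after day 2 was the rarest fate of a region open in the 4 early lists. Open in all 6 day 4 lists were 78808 of them (76.1%), in 5 lists 10775 (10.4%), in 4 lists 5952 (5.75%), in 3 lists 3691 (3.56%), in 2 lists 2225 (2.15%) and in 1 list 1522 (1.47%). The 567 members were the remaining 0.548%. The number of regions therefore fell with each further day 4 list that lacked a peak.

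**Figure D1:**
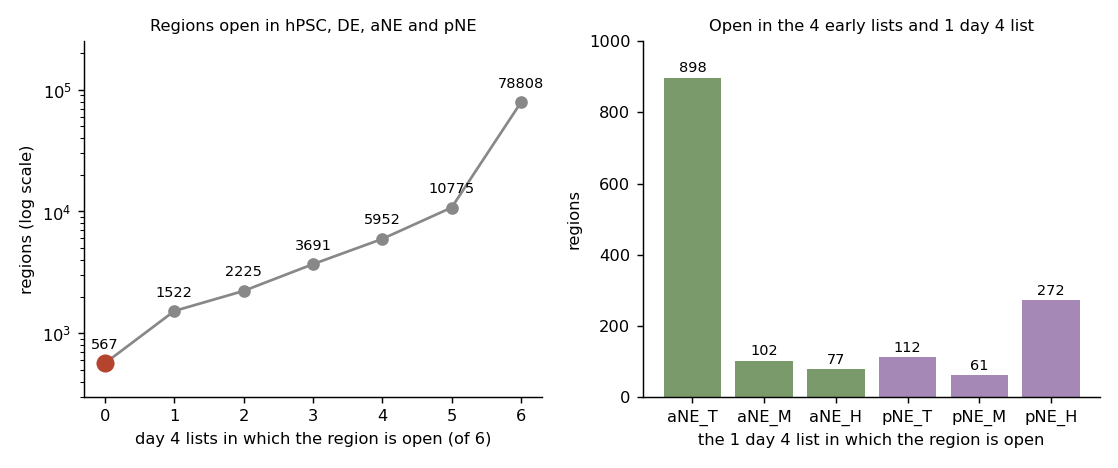
Regions open in hPSC, DE, aNE and pNE by the number of day 4 lists in which they were open (left, number of regions on a log axis), and the regions open in a single day 4 list by that list (right, number of regions, aNE-derived in green and pNE-derived in purple). The number rises from the 567 members (red) to 78808 open in all 6 lists, and aNE_T holds 898 of the 1522 regions open in 1 list.

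The regions closest to the members by the rule were those still open in a single day 4 list. Of the 1522 such regions, 898 (59.0%) kept their peak in aNE_T, 272 (17.9%) in pNE_H, 112 in pNE_T, 102 in aNE_M, 77 in aNE_H and 61 in pNE_M. The regions left in aNE_T had wide peaks at first, with medians of 405 bp in hPSC, 466 bp in DE, 344 bp in aNE and 209 bp in pNE, and a median of 236 bp in aNE_T itself. The count of members thus turns on the aNE_T list more than on any other day 4 list, and the same rule without it gave 1465 regions. On the other side of the rule, 2284 regions were open in hPSC, DE and aNE but neither in pNE nor on day 4, and 709 lacked only aNE among the early lists. Fewer lacked only hPSC (190) or only DE (56). Without the pNE list the rule gave 2851 regions, and without the aNE list 1276.

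Closing in all 3 media was counted more often for pNE than for aNE, but not in each medium. Regions open in the 4 early lists had no peak in any of the 3 aNE-derived lists in 1529 cases (1.48%), and members made up 37.1% of these. They had none in any of the 3 pNE-derived lists in 3243 cases (3.13%), of which members made up 17.5%. In telencephalon medium aNE_T lacked 5046 of the regions and pNE_T 12987, and in midbrain medium aNE_M lacked 5787 and pNE_M 13748. In hindbrain medium the order was the other way, with 9829 lacking in aNE_H and 6267 in pNE_H, the longest of the lists.

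Peaks at members were narrow on day 2. In hPSC the median width of the widest peak at a member was 305 bp (quartiles 213 and 474 bp), in DE 295 bp (210 and 467 bp), in aNE 210 bp (158 and 292 bp) and in pNE 176 bp (139 and 238 bp). The hPSC and DE values were thus alike and the aNE and pNE values lower. Regions open in the 4 early lists and in at least 1 day 4 list are called kept regions here. Their medians were 436, 463, 428 and 445 bp in the same order, with no such fall over the whole set. Most of them, 78808 regions, were open in all 6 day 4 lists. Regions open in 1 day 4 list did show a fall, with medians of 332, 389, 263 and 200 bp. The fall was smaller at those open in 5 day 4 lists, with 291, 336, 274 and 287 bp. Lower medians on day 2 were thus not particular to members. Members had a peak under the median width of the whole list in 40.6% of cases in hPSC, 42.2% in DE, 76.9% in aNE and 87.1% in pNE, beside 25.9%, 21.4%, 34.0% and 27.3% of kept regions. Peak width depends on the height and reach of the signal, the depth and the caller, and their parts were not tested.

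**Figure D2:**
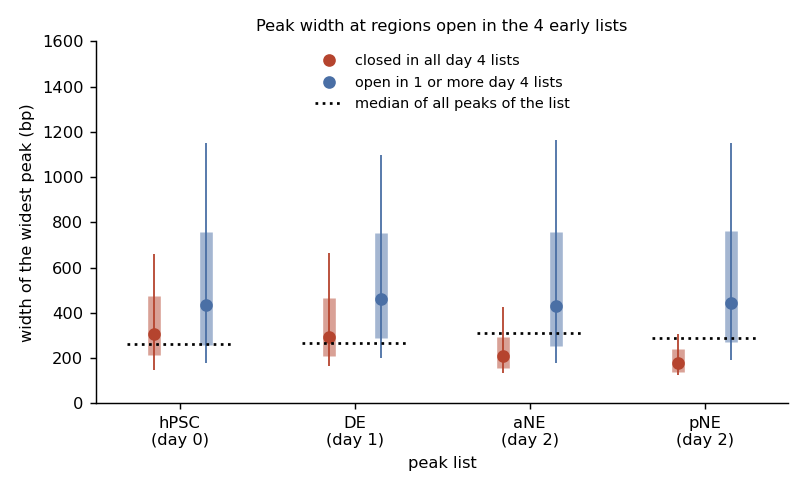
Width in bp of the widest peak at each region, by peak list, for the 567 members (red) and the 102973 kept regions (blue). Points are medians, boxes run between the quartiles, thin lines from the 10th to the 90th percentile, and dotted lines mark the median of all peaks of a list. The red medians are lower in aNE (210 bp) and pNE (176 bp) than in hPSC (305 bp) and DE (295 bp), and the blue medians lie between 428 and 463 bp.

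Within the same region the day 2 peak was usually the narrower. The aNE peak was narrower than the hPSC peak at 423 members (74.6%, interval 70.8% to 78.1%), with a median ratio of widths of 0.728, beside 52.4% of kept regions. The pNE peak was narrower than the hPSC peak at 456 members (80.4%), with a median ratio of 0.610, beside 48.9% of kept regions. Between hPSC and DE there was little to tell, with the DE peak narrower at 295 members (52.0%). Both day 2 peaks were narrower than both earlier peaks at 313 members (55.2%, interval 51.0% to 59.3%), beside 21.3% of kept regions. The widest of the 4 peaks was that of hPSC at 250 members (44.1%), DE at 229 (40.4%), aNE at 49 (8.64%) and pNE at 39 (6.88%). At kept regions these shares were 27.7%, 24.8%, 20.3% and 27.3%. Kept regions were mostly open in all 6 day 4 lists, and those open in fewer were not compared separately here.

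A part of the members stood at the lower limit of what was listed. The narrowest pNE peaks were 124 bp wide, and 66 members (11.6%) had such a peak, beside 0.863% of kept regions. In aNE the limit was 125 bp, which 33 members (5.82%) met beside 1.21% of kept regions. In hPSC 15 members (2.65%) stood at the limit beside 0.891% of kept regions, and in DE 9 members (1.59%) beside 0.464%, so members were at the limit more often in all 4 early lists.

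The share of regions that closed fell with the width of their day 2 peak. Regions open in the 4 early lists were ranked by the width of their pNE peak and split into 10 classes of nearly equal size. In the narrowest class, 124 to 189 bp, 325 of 10256 were members (3.17%). In the next class it was 113 of 10423 (1.08%), in the fifth 19 of 10331 (0.184%) and in the widest 0 of 10380, with an upper limit of 0.0355%. By aNE width the share ran from 199 of 10262 (1.94%) to 0 of 10373. It ran from 1.01% to 0.0289% by hPSC width and from 1.21% to 0.0193% by DE width. The range was thus widest for pNE and seen in all 4 early lists.

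**Figure D3:**
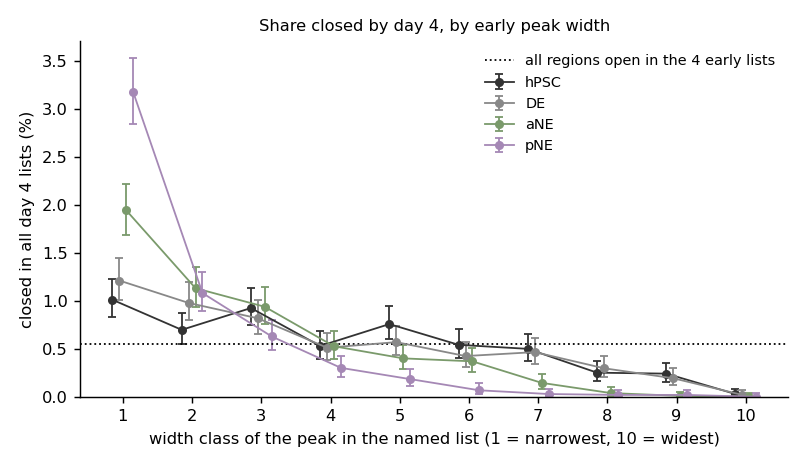
Share of regions closed in all day 4 lists, in percent, by class of peak width in each early list, from the narrowest (1) to the widest (10). Bars on the points are exact 95% intervals. The share in the narrowest class is 3.17% for pNE, 1.94% for aNE, 1.21% for DE and 1.01% for hPSC.

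As merged regions, members were narrower than kept regions and together covered 0.268 Mb. The median merged width was 412 bp (quartiles 301 and 589 bp), beside 777 bp for kept regions, 871 bp for regions open in all 10 lists and 262 bp for regions open only in hPSC and DE. The merged width grows with the number of lists that have a peak, so these values are not like for like.

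Members lay far from gene starts, as did regions lost before day 2 and most merged regions. A RefSeq start site lay within 1 kb of 13 of 538 members (2.42%, interval 1.29% to 4.10%), beside 15.8% of kept regions, 19.4% of regions open in all 10 lists, 2.85% of those open only in hPSC and DE, and 3.29% of those open only in hPSC. Over all merged regions the share was 5.49%. Members on chromosome 8 were left out here, since start sites on it were not used. A start site was available for 15101 of the 19126 protein-coding genes, so distances to the nearest may be overstated in every set. More than 10 kb from any start site were 438 members (81.4%, interval 77.9% to 84.6%), beside 67.9% of kept regions and 79.1% of all merged regions. The median distance was 32.3 kb, beside 23.7 kb for kept regions and 35.3 kb for all merged regions. Either end of a gene lay within 1 kb of 57 of the 567 members (10.1%, interval 7.70% to 12.8%). The share was 23.2% of kept regions, 9.70% of regions open only in hPSC and DE, and 11.2% of all merged regions. The last value lies within the interval for members. Kept regions open in 1 to 5 day 4 lists were also mostly distal, with 2.75% to 4.39% near a start site, so the difference was from regions open in all 10 lists.

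Inside genes the difference from kept regions was smaller. Members lay inside a protein-coding gene in 301 cases (53.1%, interval 48.9% to 57.3%), beside 57.0% of kept regions and 53.7% of regions open only in hPSC and DE. A long noncoding RNA gene held 69 members (12.2%, interval 9.59% to 15.1%), beside 18.0% of kept regions. No gene was annotated at 200 members (35.3%), beside 29.9% of kept regions. Of all merged regions, 51.0% lay inside a protein-coding gene, 16.8% inside a long noncoding RNA gene and 35.2% outside any gene. The member shares inside protein-coding genes and outside any gene were thus near those of all merged regions.

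**Figure D4:**
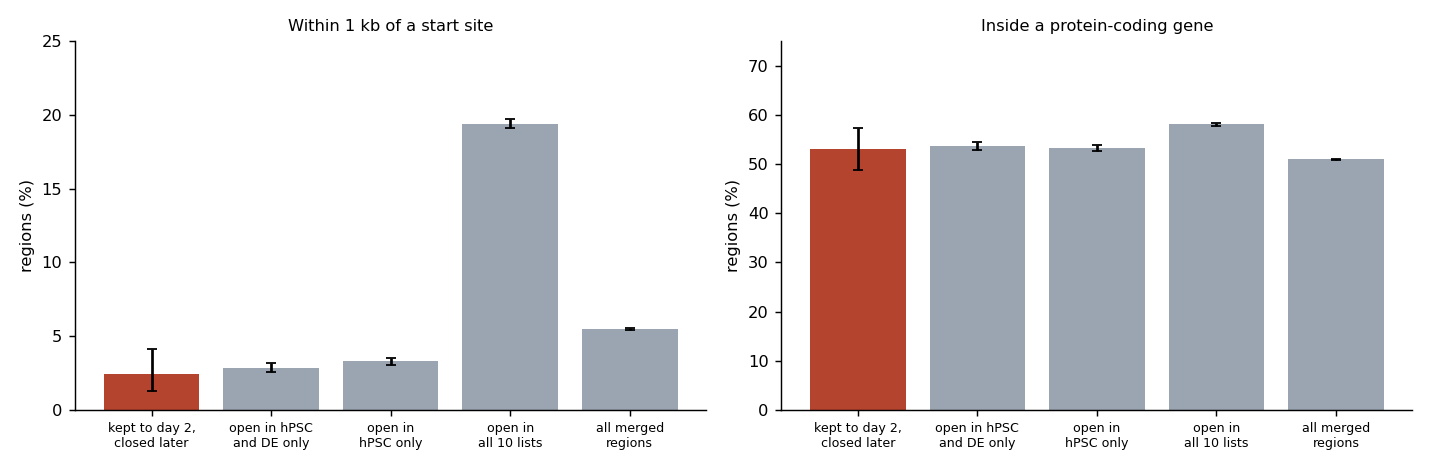
Share of regions within 1 kb of a start site (left) and inside a protein-coding gene (right), in percent, for members (red) and 4 other sets (grey), with exact 95% intervals. Members stand at 2.42% and 53.1%, and regions open in all 10 lists at 19.4% and 58.1%.

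Day 4 peaks, whether kept or newly gained, lay about as near to members as to kept regions. Another region open in at least 1 day 4 list lay within 5 kb of 478 members (84.3%) beside 80.3% of kept regions, and within 10 kb of 543 members (95.8%) beside 94.8%. The median distance from a member to the nearest day 4 peak was 1.52 kb, from 0.0140 kb at the nearest to 32.3 kb at the farthest. A region open in all 10 lists lay within 10 kb of 292 members (51.5%), beside 53.9% of kept regions, and within 50 kb of 533 (94.0%), beside 93.5%. A region open only in hPSC and DE lay within 50 kb of 286 members (50.4%), beside 45.7%. Members seldom lay together. Another member lay within 50 kb of 15 (2.65%), beside 2.70% of kept regions with a member that near. At shorter distances the share was higher for members, though on few of them. Within 10 kb of another member lay 9 members (1.59%), beside 0.582% of kept regions. Within 5 kb it was 8 members (1.41%) beside 0.307%, and within 1 kb 4 members (0.705%) beside 0.112%.

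Members were spread over many genes. By nearest end, 527 protein-coding genes had 1 member, 17 had 2 and ADGRL3 had 6, so 18 of 19126 genes (0.0941%) had at least 2. ADGRL3 encodes latrophilin 3, an adhesion G protein-coupled receptor of synapses, and spans 878 kb at chr4:61200326-62078335 on the plus strand. Its 6 members were among 42 regions open in the 4 early lists that lay nearest to it (14.3%). Over all regions open in the 4 early lists the share was 0.548%. The gene is named for its number of members, so its share is a description. All 6 members lay inside the gene. A longer gene holds more regions, and the part of gene length in the count was not tested.

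Of the 6, 5 lay in one stretch of the gene body, 520.906 to 554.951 kb after the start site. The member chr4:61732753-61733606 had peaks of 265 bp in hPSC, 854 bp in DE, 295 bp in aNE and 693 bp in pNE. The member chr4:61743779-61744611 had 466, 723, 562 and 320 bp in the same order. At chr4:61754646-61755277 the widths were 226, 632, 248 and 228 bp. At these 3 the DE peak was the widest. The member chr4:61721232-61721748 also had its widest peak in DE, 517 bp beside 163 bp in hPSC, 161 bp in aNE and 173 bp in pNE. At chr4:61734406-61734717 the widths were 254, 246, 153 and 280 bp. The sixth, chr4:61867191-61867442, lay apart, 666.865 kb after the start site, with widths of 211, 233, 145 and 149 bp.

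Closing was not shared by the whole locus. From 50 kb before ADGRL3 to 50 kb after it, 19 of the 40 regions open in the 4 early lists were open in all 10. Over all chromosomes used this share was higher, at 78808 of 103540 (76.1%). Between the 5 grouped members there lay a region open in all 6 day 4 lists, 540.953 kb after the start site, and another that kept its peak in 3 of them, at 550.191 kb. The number of open regions in the window was 86 in hPSC, 79 in DE, 50 in aNE and 92 in pNE, and on day 4 it ranged from 58 in aNE_T to 137 in pNE_H. All 6 ADGRL3 members were found again under at least 3 of the 5 other definitions of an open region.

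**Figure D5:**
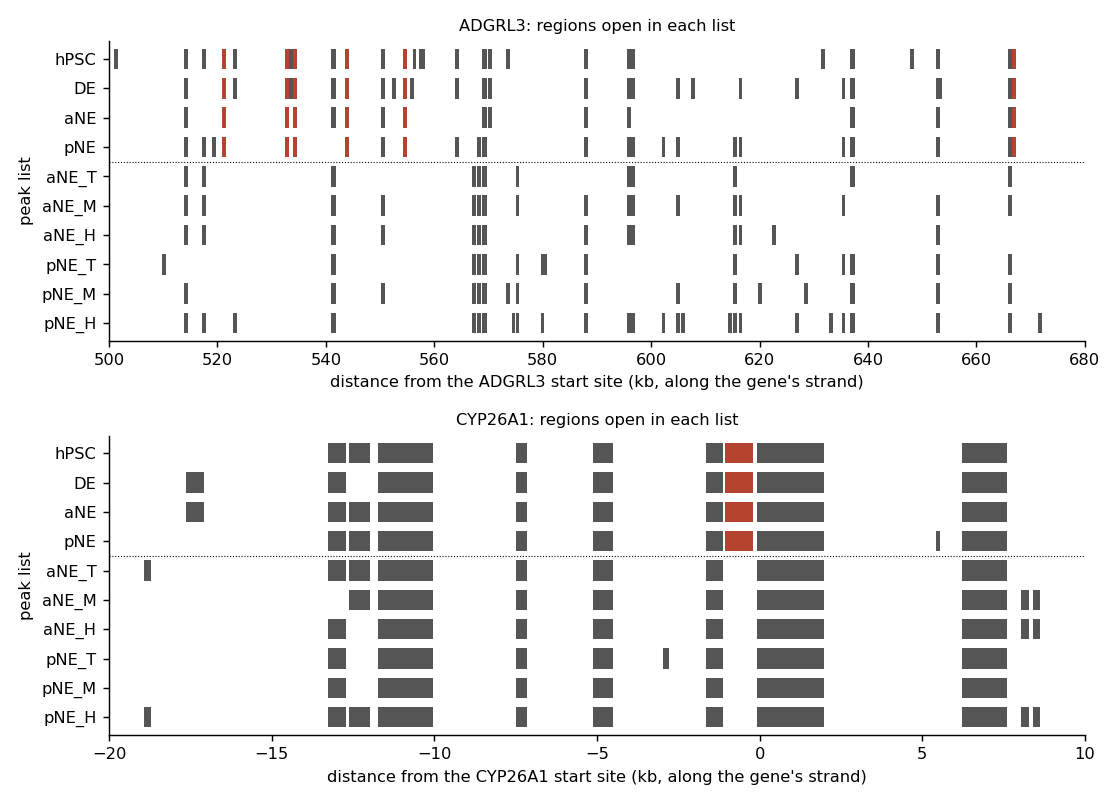
Regions open in each of the 10 peak lists around the ADGRL3 member group and the CYP26A1 start site, with distance from the start site in kb on the x axis and 1 row per list. Members are drawn in red and are present only in the hPSC, DE, aNE and pNE rows, and many of the neighbouring regions in grey carry on in day 4 rows. A merged region is drawn over its whole extent in every list open there, and the narrowest marks are widened to be visible.

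The other 9 genes taken by the naming rule had 2 members each. UCP1, the uncoupling protein of brown fat, had 2 of only 3 such regions. One of them, chr4:140557880-140558619, had peaks of 531 bp in hPSC, 712 bp in DE, 485 bp in aNE and 406 bp in pNE, was 8034 bp from a day 4 peak and was found under all 5 other definitions. Its neighbour, chr4:140556788-140557271, had peaks of 113, 219, 179 and 216 bp. SMAD4 encodes the shared mediator of TGF-beta and BMP signals, and 2 of its 10 regions were members. The nearer, chr18:51028133-51028646, lay 1567 bp from the gene, with 451 bp in hPSC, 514 bp in DE, 370 bp in aNE and 238 bp in pNE, and the other, chr18:51120804-51121193, had 365, 262, 167 and 187 bp. ACACA, acetyl-CoA carboxylase of fatty acid synthesis, had 2 members among the 11 such regions nearest to it, and both lay inside the gene. Their peaks were 278, 329, 181 and 156 bp at chr17:37102450-37102827 and 199, 401, 317 and 361 bp at chr17:37107180-37107893.

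Others with 2 members were RGS20 (2 of 7 regions), NPIPA7 (2 of 10), the neurokinin receptor gene TACR3 (2 of 12), the adenosine kinase gene ADK (2 of 14) and ST18 (2 of 18). NPIPA7 belongs to a family of nearly identical copies, so reads there may have been split or misplaced. At the TACR3 member chr4:103778237-103778889 the peak was 481 bp wide in hPSC, 570 bp in DE, 355 bp in aNE and 301 bp in pNE, and at chr4:103947569-103947920 it was 287, 226, 352 and 154 bp. The pNE peak was the narrowest at both. At the ADK member chr10:74575309-74575817 the widths were 249, 509, 183 and 124 bp.

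The share of members near pluripotency genes was close to that near all genes. Of all 19126 protein-coding genes, 747 (3.91%) had a member in a window reaching 50 kb to either side, and 21 (0.110%) had 2 or more. In all these windows 0.532% of the regions open in the 4 early lists were members. In the list of 33 pluripotency genes 2 had a member (6.06%), and 2 of 315 regions were members (0.635%, interval 0.0770% to 2.27%). The interval holds the value for all genes. The hPSC list had 670 open regions in these windows, of which 238 were open in all 10 lists, 107 only in hPSC and 50 only in hPSC and DE. In the windows of all protein-coding genes 152591 regions were open in hPSC, 64162 of them in all 10 lists, 17364 only in hPSC and 10285 only in hPSC and DE, beside 443 members.

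The 2 genes were DPPA5 and FGF2. DPPA5 encodes an RNA-binding protein of pluripotent cells, and its member chr6:73348521-73350118, outside any gene and 2945 bp from this one, was the second widest of all by mean peak width. The peak was 1598 bp wide in hPSC, 1045 bp in DE, 649 bp in aNE and 124 bp in pNE, so both day 2 peaks were narrower than the earlier ones and the pNE peak stood at the lower limit of its list. FGF2 encodes a growth factor that keeps human pluripotent cells undifferentiated and was also an agent of the pNE medium. Its member chr4:122903486-122904267 lay 5.25 kb from it inside NUDT6, with 432 bp in hPSC, 720 bp in DE, 223 bp in aNE and 126 bp in pNE. Both members were lost under 3 of the 5 other definitions.

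No member lay in the windows of POU5F1 (OCT4), NANOG, SOX2, LIN28A, LIN28B or DNMT3B. POU5F1 had 6 regions open in the 4 early lists, NANOG 7, SOX2 13, LIN28A 12, LIN28B 8 and DNMT3B 14. Around POU5F1 the number of open regions was 13 in hPSC, 15 in DE, 7 in aNE and 6 in pNE, and from 4 to 8 on day 4. Around NANOG it was 19, 11, 8 and 11 in the same order, and from 6 to 16 on day 4. Around DNMT3B it was 27, 24, 19 and 17, then 14 to 17 on day 4. Around LIN28A it was 20, 22, 17 and 17, then 15 to 20. For SOX2 the numbers were 19, 21, 19 and 16, then 19 to 24. For LIN28B they were 28, 28, 24 and 31, then 25 to 41. A fall that lasted to day 4 was thus not seen around all of these genes.

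Other lists gave 0 to 3 members each. For the NODAL pathway 1 of 166 regions was a member, in the window of SMAD7, an inhibitor of TGF-beta signalling. That member, chr18:48878964-48879481, lay 40.4 kb from SMAD7 and nearer to an end of CTIF, at 15747 bp. Its peaks were 497, 375, 440 and 204 bp in hPSC, DE, aNE and pNE. For FGF and ERK feedback it was 1 of 169, the member chr5:138455220-138455907, with 332, 688, 408 and 192 bp. It lay 9.57 kb from the early growth response gene EGR1 and 8255 bp from an end of REEP2. Among 23 epithelial genes 3 had a member (13.0%), and 3 of 258 regions were members (1.16%, interval 0.240% to 3.36%). Over all genes these shares were 3.91% and 0.532%, and the interval holds the second. The share of genes rests on 3 of 23 and was given no interval, so it shows no difference from all genes.

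The epithelial genes were CGN, EPCAM and KRT19. CGN encodes cingulin of tight junctions, and its member chr1:151526720-151527279 inside the gene had peaks of 433 bp in hPSC, 532 bp in DE, 239 bp in aNE and 491 bp in pNE. EPCAM encodes an adhesion molecule found on pluripotent and epithelial cells. Its member chr2:47332284-47332755, inside EPCAM-DT and 36.6 kb away, had 394 bp in hPSC, 443 bp in DE, 152 bp in aNE and 172 bp in pNE. KRT19 encodes a keratin, and the member chr17:41522459-41522766, 0.851 kb from it, had 222, 151, 206 and 288 bp. The fall on day 2 was thus seen at EPCAM and in aNE at CGN, and not at KRT19. CDH1, the gene of E-cadherin, had 11 regions open in the 4 early lists and no member.

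No member was found near 26 neural genes (0 of 282 regions, upper limit 1.30%), 14 mesoderm and endoderm genes (0 of 116, 3.13%), 18 surface ectoderm and crest genes (0 of 184, 1.98%) or 13 WNT genes (0 of 167, 2.18%). These limits all lie above the 0.532% of all genes, so an absence is not detectable in lists of this length. OTX2 had 8 regions open in the 4 early lists, SOX1 16 and PAX6 11, none of them a member. No gene of any list had 2 members or more.

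The 10 widest members by mean peak width show the range of shapes. The widest, chr3:31141972-31143022, lay 247311 bp from GADL1 and had peaks of 917 bp in hPSC, 760 bp in DE, 889 bp in aNE and 1051 bp in pNE. Its pNE peak was the widest of the 4, and a day 4 peak lay 425 bp away. The member chr6:30127152-30128118, 8022 bp from TRIM40, had 910, 936, 653 and 716 bp and no day 4 peak within 23429 bp. Both were found under all 5 other definitions. At chr14:62781136-62782288, inside the potassium channel gene KCNH5, the widths were 1112, 1145, 455 and 307 bp.

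At 3 others the hPSC and DE peaks were wide and the pNE peak narrow. The member chr11:93071993-93073308 near SLC36A4 had 1316 bp in hPSC, 708 bp in DE, 363 bp in aNE and 132 bp in pNE. The member chr5:119458493-119459740 inside HSD17B4, a gene of peroxisomal fatty acid breakdown, had 1248, 752, 259 and 248 bp. At chr17:74909655-74910646 near USH1G they were 796, 987, 618 and 153 bp. The reverse order was seen at chr10:75475012-75476081 inside LRMDA, with 426, 445, 515 and 1070 bp. The narrowest of the 10, chr5:55088840-55089769 near GZMA, a granzyme of cytotoxic lymphocytes, had 738, 930, 542 and 233 bp.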

How the data were processed

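OmniATAC-seq peaks were analysed as deposited by the authors, as 1 list of peak positions (sequence name, start, end) per group. The submitters' processing notes name the build hg38 and, with no role, order or version, Bowtie2, MACS2, bedtools, FastQC, featureCounts, edgeR and deepTools. The peak threshold and the way 3 replicates were combined are not given in the sources used here, and a difference in either between lists would move every count.

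Peaks were merged in Python 3.11.15 (numpy 2.4.6, pandas 2.3.3, scipy 1.17.1, matplotlib 3.10.9). The 476170 merged regions were identical in bedtools 2.31.1. On simulated lists of 60000 regions with 300 planted members, 300 were found and 0 others. At a region with several peaks of a list the widest was used. Intervals are exact (Clopper-Pearson, 95%), or order-statistic intervals for medians, and cover the sampling of regions only. Genes, start sites and sequences came from RefSeq (GRCh38.p14); 15101 of the 19126 protein-coding genes had a start site in the table used. Motifs were searched only in promoter windows, because a whole genome was not used here.

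The members and the gene lists were chosen with earlier results of these data known. Named genes are the 10 with most members by nearest end (ties by closed share, then symbol), list genes with 2 or more members, and well-known list genes. Named regions are the 10 widest by mean. Some genes and regions that these rules take are not reported here. The list genes with 1 member (DPPA5, FGF2, SMAD7, EGR1, CGN, KRT19), the promoter genes and the microRNAs were chosen after their values were seen. SOX3 is not on the chromosomes used. The 5 other definitions of an open region were peaks covering at least 50% of the region, the widest 50% of peaks of each list, each list at its widest peaks to the number in the shortest list, 500 bp windows at peak midpoints, and merging within 100 bp.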

Additional observations from a re-analysis of the deposited data

Results flagged for a closer look

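The rule was also met outside chromosomes 1 to 22, in data that the comparisons above do not use. These counts are given because they are above 0, which shows no difference from the other chromosomes. On chromosome X 27 regions followed it, of 3667 open in the 4 early lists (0.736%, exact 95% interval 0.486% to 1.07%). On chromosome Y it was 1 of 152 (0.658%). On the other sequences of the files, which are alternate, patch and unplaced scaffolds and the mitochondrial genome, 110 regions followed it, of 7013 (1.57%, 1.29% to 1.89%). The value for chromosomes 1 to 22 was 0.548%, within the interval for chromosome X and below that for the other sequences. Alternate and patch scaffolds repeat sequence of the main chromosomes, so these regions need not be separate from the members; this was not tested.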

How the results depend on the processing

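Which regions were members depended on how open was defined. Of the 567, 166 (29.3%) were found where peaks had to cover 50% of a region, 25 (4.41%) with the widest 50% of peaks, 235 (41.4%) with lists cut to equal number by width, 514 (90.7%) with 500 bp windows and 550 (97.0%) with merging within 100 bp; 14 were found under all 5 and 4 under none. The number of members was 357 with the widest 50% of peaks, 339 without members that had a day 4 peak within 1 kb, and 1276, 2851 and 1465 without the aNE, pNE and aNE_T lists, while 12 other settings stayed within 1.5 times, from 543 to 839. The closed share was 1.26% at 50% cover, 0.662% with the widest 50% and 0.900% with equal numbers. With equal numbers the median widths at members were 338 bp in hPSC, 356 bp in DE and 227 bp in pNE, while aNE stayed at 226 bp. The gene end share was 6.78% without members that had a day 4 peak within 1 kb and 30.5% within 5 kb. Gene list shares stayed within their intervals in 25 of 28 comparisons outside the pluripotency list; the FGF and ERK share by nearest end and the NODAL share by nearest end or 10 kb windows fell to 0. The cause of these moves was not tested. No paired analysis was possible because each group has 1 list and no value per replicate; for the same reason no replicate could be left out. Motifs over whole regions were not run, and depth behind a peak is unknown.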

Other observations

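Members were found on all 22 chromosomes, from 59 on chromosome 1 to 5 on chromosome 21, and their share of the regions open in the 4 early lists ran from 0.368% on chromosome 22 to 0.699% on chromosome 4. The intervals of these shares overlapped (0.159% to 0.724% and 0.490% to 0.967%).

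Some members lay far from any day 4 peak. They were picked here for that distance after it was seen. The farthest, chr12:17818965-17819198, was 32316 bp from a day 4 peak and had peaks of 138 bp in hPSC, 234 bp in DE, 149 bp in aNE and 140 bp in pNE. The member chr3:125862558-125863230 was 25688 bp away and wider, with 673, 511, 363 and 282 bp, so its peak narrowed from hPSC through DE to both day 2 lists.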
